A study of Mus musculus with 10 samples.

Results

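The kinesin and dynein motor genes of the mouse are described here in cortical projection neurons of pups at postnatal day 3, with and without Cdk7. Members were all genes of the count table whose symbol begins with Kif followed by a digit or c, with Klc1 to Klc4, Dync1 or Dync2, Dctn1 to Dctn6, or with Dynll, Dynlr or Dynlt. The pattern found 74 of 55573 listed genes, of which 70 had a count in at least 1 library and 66 passed edgeR's filter on low counts. Kif2b and the pseudogenes Kif22-ps, Kifc5c-ps and Kif4-ps had 0 counts in all 10 libraries. Kif12, Kif28, Dynlt1b and the antisense transcript Kif16bos had too few counts for the test. By the same pattern, the kinesin-2 adaptor gene Kifap3 and the mitotic kinesin gene Cenpe are not members, while Kif1bp, which encodes a kinesin-binding protein without a motor, is one.

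Kinesins and cytoplasmic dynein are motor proteins that use ATP to walk along microtubules. In neurons, kinesins of the kinesin-1, kinesin-2 and kinesin-3 families carry vesicles, mitochondria and mRNA toward axon tips, and dynein 1 with its activator dynactin carries cargo back to the cell body. Other kinesins build the mitotic spindle, move chromosomes or complete cytokinesis, and their genes are transcribed mainly in dividing cells such as cortical progenitors, whereas projection neurons have left the cell cycle.

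Each library was made from polyA RNA of EYFP-positive cells sorted from the dissociated cortex of 1 pup. The 5 Ctrl pups were NexCre/+;Cdk7+/+, R26EYFP/+ and the 5 Cdk7_KO pups NexCre/+;Cdk7lox/lox, R26EYFP/+, so that both groups carried the driver and the reporter and only Cdk7_KO carried floxed Cdk7. NexCre is a Cre allele of Neurod6 that recombines in glutamatergic neurons of the dorsal telencephalon from an early stage of their differentiation, and both the deletion and the EYFP signal depend on it. CDK7 phosphorylates cell cycle kinases as well as RNA polymerase II, the latter within TFIIH, and the comparison asks how its loss changed RNA levels.

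Libraries held between 23497621 and 31233466 counts. Cdk7 RNA, in counts scaled to the library total (CPM), lay at 10.1 to 20.3 CPM in Ctrl and 3.63 to 7.07 CPM in Cdk7_KO. The log2 fold change was -1.54 (SE 0.22, edgeR adjusted p = 0.161). A two-sided exact permutation test on log2(CPM + 1) gave p = 0.0079, the smallest value it can give with 5 libraries per group. Markers of projection neurons summed to 6653 to 8167 CPM in Ctrl and 7604 to 8823 CPM in Cdk7_KO over 14 genes, and all 14 had a positive log2 fold change, with 0 passing edgeR's adjusted test. Along the first principal component of all tested genes (36.6% of the variance), Ctrl 1 and Cdk7_KO 4 stood at opposite ends, so the leading counts are also given without them. By Xist and Ddx3y counts, Ctrl 1 and 3 and Cdk7_KO 1, 2 and 3 were male and the others female. The replicate numbers follow sex, so sex and any other difference between those sets of pups cannot be told apart.

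Mitotic kinesin promoters shared a short sequence that was rare in the promoters of the transport motors. RefSeq windows from 250 bases before to 50 after a gene's start (GRCm38.p6) were found for 52 of the 74 members. They were searched on both strands for TTTGAA, the core of the cell cycle genes homology region, and for CCAAT, the box bound by NF-Y. The 2 motifs can share at most 1 base, at their ends. Among the 14 mitotic kinesins, Kif20a had no window. The 20 windows of transport motors (kinesin-1, kinesin-2, kinesin-3 and dynein 1) came from 17 of 22 genes, some with more than 1 start. TTTGAA was in 11 of 13 mitotic kinesin windows (84.6%), against 1 of 20 windows of transport motors and 17.9% of all 32851 windows. CCAAT was in 9 of 13 mitotic windows (69.2%), 6 of 20 transport windows and 37.4% of all. Both were in 8 of 13 mitotic windows, 0 of 20 transport windows and 6.95% of all windows. The GC-rich box GGGCGG, searched the same way, was more frequent in transport windows (16 of 20, 80%) than in mitotic windows (6 of 13, 46.2%). Both shares were above the 35.7% of all windows. TTCGAA, a variant of the first motif that reads the same on both strands, was in 0 mitotic and 0 transport windows and in 1.56% of all. Among the other motor genes it was in 2 of 26 windows (7.69%), those of Kif24 and Dctn3. A match describes the letters in a window. No binding was measured in these libraries.

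The 8 mitotic kinesin promoters with TTTGAA near the start are shown because this is the feature they share. Each runs from 80 bases before the start to 30 after it, 5′ to 3′ on the gene's strand, and capitals mark TTTGAA and CCAAT on either strand, so that a match on the opposite strand reads as TTCAAA in the first case. The reverse of the second box reads as ATTGG.
Kif11 (chr19:37376302-37376411, + strand): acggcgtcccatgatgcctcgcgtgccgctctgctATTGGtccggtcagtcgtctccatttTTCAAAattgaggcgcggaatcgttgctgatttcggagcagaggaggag
Kif22 (chr7:127042391-127042500, - strand): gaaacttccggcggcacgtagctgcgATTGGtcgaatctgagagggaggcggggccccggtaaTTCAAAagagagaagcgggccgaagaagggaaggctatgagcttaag
Kif23 (chr9:61946770-61946879, - strand): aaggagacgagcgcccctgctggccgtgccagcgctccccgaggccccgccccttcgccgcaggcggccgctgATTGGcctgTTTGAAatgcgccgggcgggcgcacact
Kif4 (chrX:100625985-100626094, + strand): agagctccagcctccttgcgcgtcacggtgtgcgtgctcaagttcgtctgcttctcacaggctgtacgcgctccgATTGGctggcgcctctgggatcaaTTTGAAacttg
Kifc1 (chr17:33890604-33890713, - strand): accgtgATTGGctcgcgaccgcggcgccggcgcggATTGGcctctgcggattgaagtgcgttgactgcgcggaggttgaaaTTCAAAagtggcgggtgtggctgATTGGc
Kif18b (chr11:102925095-102925204, - strand): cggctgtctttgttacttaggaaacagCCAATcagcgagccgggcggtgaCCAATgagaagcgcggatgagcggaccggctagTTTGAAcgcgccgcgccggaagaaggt
Kif15 (chr9:122951001-122951110, + strand): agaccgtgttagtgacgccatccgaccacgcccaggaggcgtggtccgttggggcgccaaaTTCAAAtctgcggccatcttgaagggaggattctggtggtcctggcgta
Kif20b (chr19:34922278-34922387, + strand): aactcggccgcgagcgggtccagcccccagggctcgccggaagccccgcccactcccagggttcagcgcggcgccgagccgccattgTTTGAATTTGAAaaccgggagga

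The promoters of Kif5c and Kif1a, the most abundant kinesin heavy chain genes of these libraries, are shown over the same stretch and with the same capitals for contrast. Kif1a has 2 annotated starts, and the second holds the one TTTGAA match of the transport motors.
Kif5c (chr2:49619206-49619315, + strand): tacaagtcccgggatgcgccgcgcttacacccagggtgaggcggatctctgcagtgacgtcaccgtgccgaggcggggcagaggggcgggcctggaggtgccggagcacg
Kif1a, first start (chr1:93101845-93101954, - strand): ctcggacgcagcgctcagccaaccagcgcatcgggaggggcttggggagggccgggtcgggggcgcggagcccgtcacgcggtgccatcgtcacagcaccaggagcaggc
Kif1a, second start (chr1:93082451-93082560, - strand): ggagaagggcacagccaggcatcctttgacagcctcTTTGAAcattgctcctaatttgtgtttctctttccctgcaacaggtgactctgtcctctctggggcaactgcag

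These 8 genes were picked for a match near the start. The other 3 mitotic windows with TTTGAA have it from base -228 (Kif14), base -103 (Kif2c) and base 30 (Kifc5b) relative to the start, while the windows of Kif18a and Kif2b hold none. In the printed stretches ATTGG or CCAAT precedes the TTTGAA match in Kif11, Kif22, Kif23, Kif4, Kifc1 and Kif18b, and is absent from the printed stretches of Kif15 and Kif20b. Kif5c and the first start of Kif1a hold neither in these stretches.

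Transport motors, dynein light chains and dynactin led the motor genes in these neurons, and mitotic kinesins were a small share. All 74 members together took 1.07% of the counts in Ctrl and 1.08% in Cdk7_KO. Divided by the length of each gene's exons, the level in Ctrl was highest for the dynein light chain gene Dynlrb1, at 163 ± 13.7 CPM per kb (SD, n = 5). The kinesin-1 light chain gene Klc1 (150.3 ± 10.7) and the light chain gene Dynll2 (143 ± 8.35) came next. Among these 3, each gap between neighbours in the order was smaller than the larger of their SDs. Kif5c, the kinesin-1 heavy chain gene of neurons, followed at 123 ± 5.28 CPM per kb, and Kif1a, the motor of synaptic vesicle precursors, at 113 ± 4.61. The dynactin gene Dctn3 (98.8 ± 9.30) and the dynein heavy chain gene Dync1h1 (96.7 ± 4.38) lay within their SDs of each other. Kif21b, a kinesin that slows microtubule growth, had 75.7 ± 4.04 CPM per kb and Kif5a, the neuron-specific kinesin-1 heavy chain gene, 66.4 ± 3.61.

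The highest mitotic kinesin, Kifc1, ranked 43 of 74 at 2.23 ± 0.405 CPM per kb, and Kif11 ranked 45 at 1.88 ± 0.456. Neighbours in this lower stretch of the order, from Kifc1 down to Kif2c, differed by less than their SDs. The 14 mitotic kinesins summed to 0.76 ± 0.13% of motor gene CPM in Ctrl and 0.43 ± 0.14% in Cdk7_KO (SD, n = 5).

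**Figure D1:**
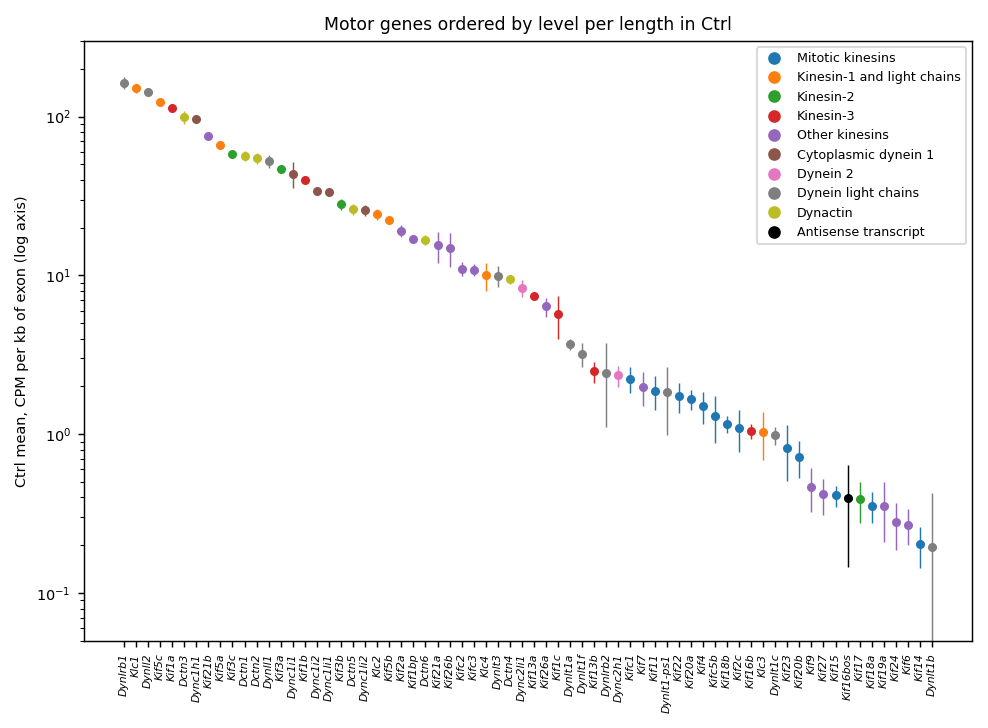
Mean level of each motor gene in the 5 Ctrl libraries, in CPM per kb of exon on a log axis, with bars for the SD and colours for role groups. Dynein light chains, kinesin-1, kinesin-3 and dynactin genes lead the order, and the mitotic kinesins begin at rank 43 with Kifc1 at 2.23 CPM per kb; members under 0.1 CPM per kb are left out.

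Mitotic kinesins had lower RNA levels in Cdk7_KO, and the kinesins and dynein subunits of axonal transport as a group did not differ in one direction. All 13 tested mitotic kinesins had a negative log2 fold change, with a median of -0.70, and 9 of them had an unadjusted p under 0.05 in edgeR's quasi-likelihood test. Of 22 tested transport motors (kinesin-1, kinesin-2, kinesin-3 and dynein 1), 7 were negative and 15 positive, with a median of 0.03. The median over all 15578 tested genes was 0.01. No test was made of the difference between these groups. In sorted bulk RNA, fewer cells of a type and less RNA per cell cannot be told apart.

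After adjustment over all genes, edgeR called 0 motor genes, and it called 0% of all genes tested. Before adjustment, 12 of 66 members were lower at p under 0.05, against 10.5% of all genes, and 2 were higher, against 4.9% of all genes. Without Ctrl 1 and Cdk7_KO 4, 8 members were lower at that p, 6 of them mitotic kinesins. All lower and higher members together came to 14, and to 9 without that pair or without Cdk7_KO 5 alone. The shares of all genes without these libraries are not given. DESeq2 called 4 members lower and 0 higher, Kif11, Kif22, Kif23 and Kif1c, against 3.32% of genes lower and 0.26% higher. In limma voom 0 members were called. Of the members, 3 had all Cdk7_KO libraries below all Ctrl libraries (Kif20a, Kif18b and Kifc1), against 2.41% of genes, and 0 had all above, against 0.61%. Over all 66 members, 31 fold changes were negative and 35 positive. When scaled by library totals alone, which moves the median of all genes from 0.01 to -0.04, 47 of 66 were negative, and so were 14 of the 22 transport motors, while the mitotic kinesins remained 13 of 13 negative.

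**Figure D2:**
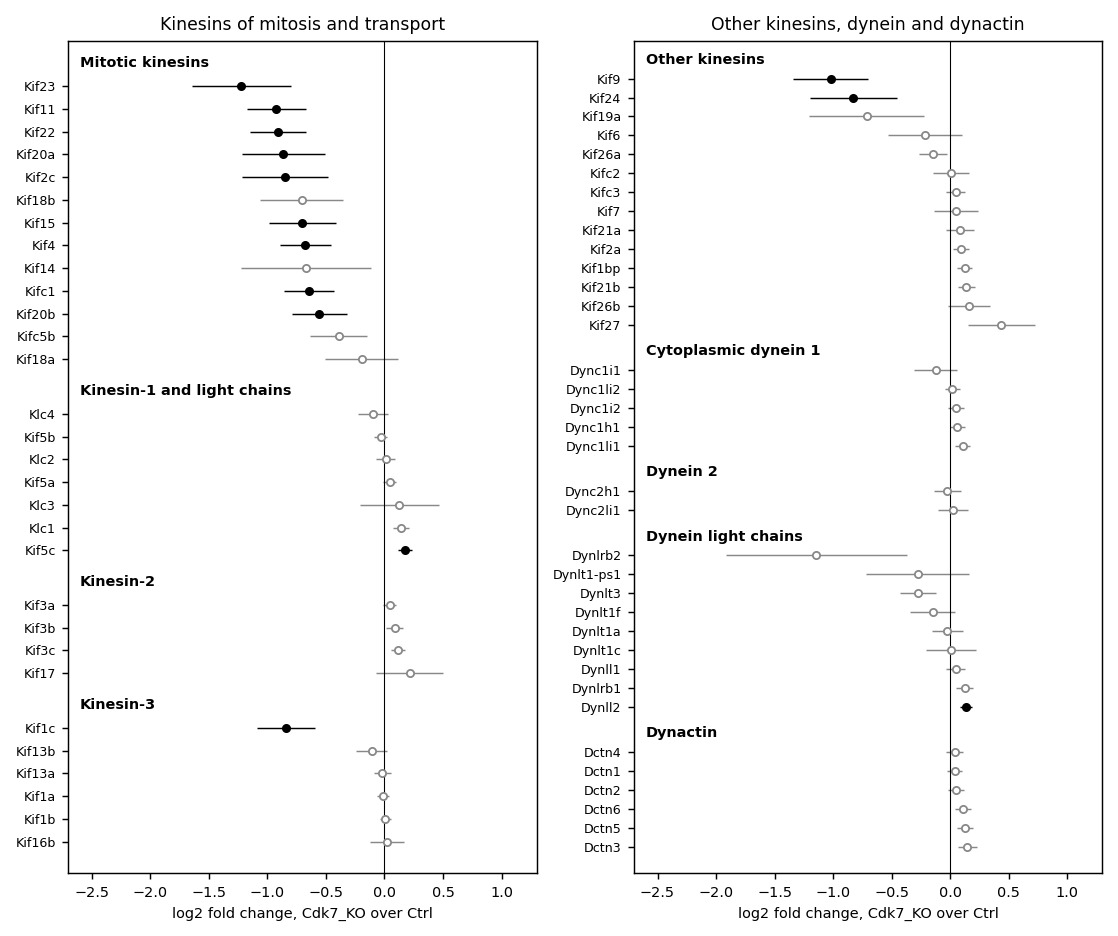
Log2 fold change of each tested motor gene, Cdk7_KO over Ctrl, by role group. Bars are standard errors of edgeR, and filled points have an unadjusted p under 0.05. All 13 mitotic kinesins lie left of 0, between -1.22 (Kif23) and -0.20 (Kif18a), while transport motors other than Kif1c lie near 0.

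Kif11 and Kif15 are the mitotic kinesins that separate the spindle poles. Kif11 encodes the kinesin-5 that pushes the poles apart (ENSMUSG00000012443, GRCm38 chromosome 19, 37376403 to 37421859, plus strand). Its RNA was at 16.5, 16.0, 16.8, 11.0 and 9.70 CPM in Ctrl 1, 3, 4, 5 and 6 and at 8.21, 6.80, 10.0, 3.36 and 7.36 CPM in Cdk7_KO 1 to 5. The 3 highest Ctrl libraries stood well above every Cdk7_KO library, and the ranges met only between Cdk7_KO 3 and Ctrl 6. The log2 fold change was -0.92 (SE 0.25, edgeR adjusted p = 0.167), and DESeq2 gave an adjusted p of 0.0125. Kif15, which can share this work with Kif11, lay between 3.94 and 5.73 CPM in Ctrl and between 1.40 and 4.94 CPM in Cdk7_KO, with a log2 fold change of -0.70 (SE 0.29, edgeR adjusted p = 0.271).

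Kif20a, Kif20b and Kif23 encode motors of the central spindle and of cytokinesis. Kif20a (chromosome 18, 34624613 to 34633277) was at 8.94, 6.88, 7.34, 6.40 and 6.51 CPM in the Ctrl libraries and at 4.64, 4.10, 5.88, 0.841 and 3.79 CPM in the Cdk7_KO libraries, in the same order. No Cdk7_KO library reached the lowest Ctrl library, and Cdk7_KO 4 was far below the other four. The log2 fold change was -0.86 (SE 0.35, edgeR adjusted p = 0.271, DESeq2 adjusted p = 0.125). Exons of Kif20a share bases with Cdc23 on the opposite strand, so their reads may be mixed if the counting did not use strand. Kif23 (chromosome 9, 61915905 to 61946774) had the most negative fold change of the group, with 9.87, 6.15, 8.07, 4.88 and 3.59 CPM in Ctrl and 4.36, 2.58, 4.09, 0.673 and 1.77 CPM in Cdk7_KO. The groups overlapped, since Ctrl 6 lay below Cdk7_KO 1 and 3. Its log2 fold change was -1.22 (SE 0.42, edgeR adjusted p = 0.204, DESeq2 adjusted p = 0.0481). Kif20b had 5.00 ± 1.31 CPM in Ctrl against 3.27 ± 0.775 CPM in Cdk7_KO (SD, n = 5).

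The chromosome-binding kinesins, which push chromosomes from the poles or shape them, followed the same direction. Kif22 (chromosome 7, 127027729 to 127042471) was at 8.85, 9.70, 9.24, 9.51 and 5.26 CPM in Ctrl and at 4.85, 5.90, 5.19, 2.52 and 3.46 CPM in Cdk7_KO. Ctrl 6 lay apart from the other Ctrl libraries, inside the range of Cdk7_KO. The log2 fold change was -0.91 (SE 0.24, edgeR adjusted p = 0.163, DESeq2 adjusted p = 0.0116), the smallest p of any motor gene. Kif4, whose protein organises chromosome arms and the midzone, had 8.30 ± 1.89 CPM in Ctrl against 5.02 ± 1.32 CPM in Cdk7_KO (log2 fold change -0.68, edgeR adjusted p = 0.192). Both share exon bases with an antisense gene, Gm31749 for Kif22 and Pdzd11 for Kif4.

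Kinesins that act on microtubule ends had mixed precision. Kif2c, which takes microtubules apart at centromeres, had a log2 fold change of -0.85 (SE 0.37, edgeR adjusted p = 0.298). Kif18b, an end-binding kinesin of astral microtubules, was at 3.75, 3.97, 5.04, 3.99 and 4.03 CPM in Ctrl and 3.74, 2.58, 3.16, 0.589 and 2.26 CPM in Cdk7_KO. Its groups were separated by a narrow gap between Ctrl 1 and Cdk7_KO 1, and its unadjusted p did not pass (log2 fold change -0.71, SE 0.35, edgeR adjusted p = 0.368). Kif18a, which dampens chromosome oscillation, had the smallest difference, with 3.48 ± 0.761 CPM in Ctrl against 2.92 ± 1.41 CPM in Cdk7_KO (log2 fold change -0.20, SE 0.31).

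Kifc1, the minus-end motor that focuses spindle poles, was at 7.15, 8.61, 9.44, 6.72 and 6.11 CPM in Ctrl and at 5.65, 5.86, 5.55, 2.90 and 3.54 CPM in Cdk7_KO, without overlap (log2 fold change -0.64, SE 0.22, edgeR adjusted p = 0.195). Its near-identical copy Kifc5b had a log2 fold change of -0.39 (SE 0.24), and reads of this pair may be shared. Kif14, a motor of the cytokinetic bridge, was the most variable, with 3.43 CPM in Cdk7_KO 1 and 0.168 CPM in Cdk7_KO 4 (log2 fold change -0.67, SE 0.56).

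**Figure D3:**
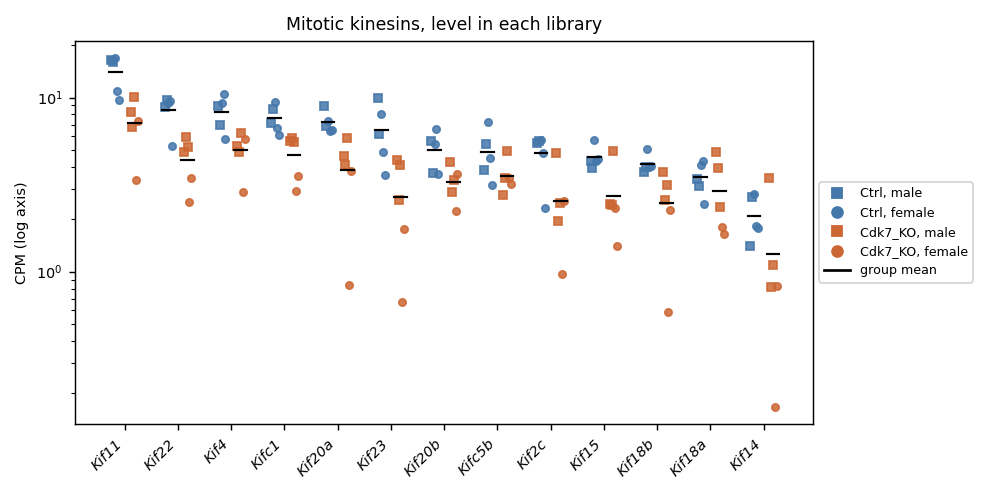
Level of the 13 tested mitotic kinesins in each library, in CPM on a log axis. Squares are male and circles female libraries, and black lines are group means. Cdk7_KO 4 is the lowest library for 10 of them, as in Kif20a at 0.841 CPM against 6.40 CPM in the lowest Ctrl library.

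Summed over the 14 mitotic kinesins, the level was 88.1, 82.8, 96.4, 79.3 and 58.8 CPM in Ctrl and 59.3, 48.1, 59.3, 24.7 and 41.2 CPM in Cdk7_KO. Cdk7_KO 1 and 3 lay just above Ctrl 6, and the mean of Cdk7_KO was 57.4% of that of Ctrl. Their median log2 fold change was -0.55 without Cdk7_KO 4 and -0.52 without Ctrl 1 and Cdk7_KO 4, and all 13 stayed negative in both. In males alone it was -0.46, with 12 of 13 negative and Kif18a at 0.21, and in females alone -1.18, with 13 of 13 negative. The only female Cdk7_KO libraries were Cdk7_KO 4 and 5, and Cdk7_KO 4 had the lowest sum of all libraries. None of the 48 motor genes tested for a difference between the sexes in the genotype effect passed adjustment (edgeR interaction term, smallest adjusted p = 0.665). The 2 with an unadjusted p under 0.05 in that test were Dctn3 (0.013) and Dynll1 (0.015), neither of them a mitotic kinesin. With sex as a factor, edgeR called 5 of 66 members, all lower, Kif11 (adjusted p = 0.0232), Kif22 (0.0194), Kif23 (0.0288), Kifc1 (0.0456) and Kif1c (0.0083). In the same fit it called 732 of all 15578 tested genes, in either direction.

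Genes that work with these kinesins in mitosis, and markers of several other cell types, had lower mean levels in Cdk7_KO as well. Of 27 further mitotic genes (Cenpe among them), 27 had a negative fold change, with a median of -0.96. In edgeR 26 were lower at an unadjusted p under 0.05 (10.5% of all genes) and 0 passed adjustment. DESeq2 called 18 lower (3.32% of all genes), and 13 had all Cdk7_KO libraries below all Ctrl (2.41% of all genes). Examples are Nuf2, a kinetochore gene (8.26 ± 1.52 against 4.15 ± 1.23 CPM), and Ccnb1, which encodes cyclin B1 (10.7 ± 2.08 against 5.25 ± 1.86 CPM). Cdca8, of the chromosomal passenger complex, and the spindle gene Nusap1 had log2 fold changes of -0.61 (SE 0.15) and -1.06 (SE 0.26). Per 100 CPM of these mitotic genes, the mitotic kinesins had 22.0 ± 1.10 CPM in Ctrl and 23.2 ± 1.07 CPM in Cdk7_KO. This ratio moved far less than the mitotic kinesin sum itself, and what lies behind this was not tested.

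Among markers of radial glia and other progenitors, 11 of 12 were negative, with a median of -0.93, and their sum lay between 1012 and 1707 CPM in Ctrl and between 333 and 1097 CPM in Cdk7_KO. The mitotic kinesins had 5.43 ± 0.390 CPM per 100 CPM of these markers in Ctrl and 6.31 ± 0.810 CPM in Cdk7_KO. Per 100 CPM of astrocyte markers they had 11.0 ± 1.64 CPM in Ctrl and 15.0 ± 4.55 CPM in Cdk7_KO, with 22.2 CPM in Cdk7_KO 4. The 10 astrocyte markers were all negative (median -1.08, sums 483 to 994 CPM against 111 to 548 CPM), as were the 12 vascular markers (median -1.63, 204 to 1325 CPM against 53.9 to 295.5 CPM). The 10 microglia, 8 oligodendrocyte lineage and 10 interneuron markers were negative too, with medians of -0.85, -0.80 and -0.90. Their summed levels were 102 to 347, 333 to 935 and 78.9 to 377 CPM in Ctrl, and 54.2 to 167, 203 to 565 and 22.6 to 264 CPM in Cdk7_KO. In males alone 4 of 8 oligodendrocyte lineage markers were negative (median -0.17) and 1 of 10 interneuron markers (median 0.39), while in females all were negative (medians -1.24 and -2.10). In edgeR, 11 progenitor, 8 astrocyte and 12 vascular markers were lower at an unadjusted p under 0.05. So were 5 microglia, 6 oligodendrocyte lineage and 1 interneuron markers, against 10.5% of all genes. DESeq2 called 5 progenitor, 1 vascular and 1 oligodendrocyte lineage markers lower, against 3.32% of all genes. It called no astrocyte, microglia or interneuron marker, and edgeR called none in any of these lists. Cdk7_KO 4 was the lowest of all libraries for the mitotic kinesins and for each of these marker sums. Ctrl 6 was the lowest Ctrl library for the mitotic kinesins and for progenitor and astrocyte markers. The order of the Ctrl libraries was not the same in every list. Ctrl 1 was the lowest of them for interneuron markers (78.9 CPM), and Ctrl 4, highest for mitotic kinesins, was the lowest for vascular markers (204 CPM). Every marker of these lists had counts in both groups, so none was at 0. The part of such cells in the mitotic kinesin difference was not tested.

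**Figure D4:**
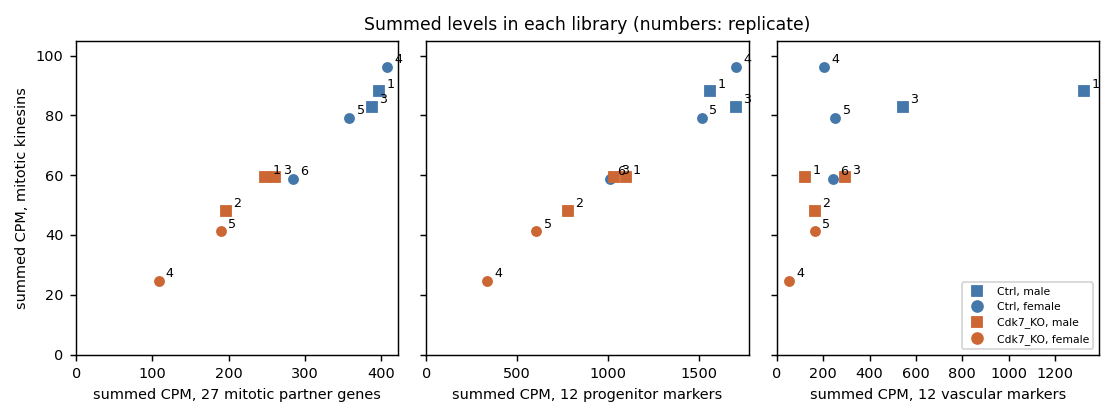
Summed CPM of the 14 mitotic kinesins against the summed CPM of 27 mitotic partner genes, 12 progenitor markers and 12 vascular markers, with 1 point per library and its replicate number. Cdk7_KO 4 is lowest on all axes (24.7 CPM of mitotic kinesins) and Ctrl 4 highest for the mitotic kinesins (96.4 CPM), whereas Ctrl 1 stands apart only on the vascular axis (1325 CPM).

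The kinesin-1 motors, which haul mitochondria and vesicles along axons, had overlapping levels in both groups. Kif5c (ENSMUSG00000026764, chromosome 2, 49619298 to 49774778) was at 886, 885, 913, 812 and 882 CPM in Ctrl and at 889.9, 1012, 957, 1001 and 905 CPM in Cdk7_KO. Ctrl 4, at 913 CPM, lay above Cdk7_KO 1 and 5, so the groups overlapped. The log2 fold change was 0.18 (SE 0.06, edgeR adjusted p = 0.198), and DESeq2 gave an adjusted p of 0.178. Kif5a (chromosome 10, 127225696 to 127263348) was at 423, 477, 489, 474 and 458 CPM in Ctrl and at 420.3, 499, 497, 439 and 452 CPM in Cdk7_KO. These values interleave, and the log2 fold change was 0.04 (SE 0.06). Kif5b, the heavy chain gene also expressed outside neurons, was at 178 ± 8.46 and 168 ± 11.8 CPM.

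Within the 3 heavy chain genes, per exon length, Kif5c took 58.0 ± 1.62% in Ctrl and 60.5 ± 1.54% in Cdk7_KO (SD, n = 5). Kif5a took 31.4 ± 1.43% and 29.9 ± 1.18%, and Kif5b 10.6 ± 0.665% and 9.56 ± 0.459%. The two-sided exact permutation p was 0.024 for Kif5c, 0.032 for Kif5b and 0.119 for Kif5a, and none passed adjustment over the 6 shares tested (0.095, 0.095 and 0.238). Of the light chain genes, which link kinesin-1 to cargo, Klc1 had a log2 fold change of 0.14 (SE 0.07, edgeR adjusted p = 0.343), and Klc2, Klc3 and Klc4 had values of 0.01, 0.13 and -0.10.

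Of the kinesin-3 motors, Kif1c was lower at an unadjusted p under 0.05 and the other 5 had values near 0. Kif1a (chromosome 1, 93015464 to 93101951) was at 1013, 1041, 1019.6, 1111 and 1088 CPM in Ctrl and at 948, 998, 1021, 1015 and 1049 CPM in Cdk7_KO, with overlapping groups and a log2 fold change of -0.01 (SE 0.05). Kif1b, a carrier of mitochondria and synaptic vesicle precursors, had a value of 0.01 (SE 0.05), and Kif13a, Kif13b and Kif16b, motors of endosomes and related membranes, had -0.02, -0.11 and 0.02. Kif1c (chromosome 11, 70700548 to 70731964), which moves dense-core vesicles and mRNA in many cell types, was at 60.8, 43.8, 37.5, 37.9 and 27.1 CPM in Ctrl and at 23.3, 25.9, 34.0, 12.5 and 16.5 CPM in Cdk7_KO. Ctrl 1 was the highest library and Cdk7_KO 4 the lowest, and Cdk7_KO 3 overlapped with Ctrl 6. Its log2 fold change was -0.84 (SE 0.25, edgeR adjusted p = 0.179, DESeq2 adjusted p = 0.0195). Ctrl 1 and Cdk7_KO 4 were also the highest and the lowest library for the vascular marker sum, and its part in the Kif1c difference was not tested.

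Kinesin-2 motors, which serve axons and cilia, had fold changes above 0 in 4 of 4 genes, with a median of 0.10 and 0 at an unadjusted p under 0.05. The largest was Kif17, a dendritic motor, at 0.21 (SE 0.29) from only 1.79 ± 0.515 CPM in Ctrl. Kif3c had 432 ± 19.9 CPM in Ctrl and 452 ± 20.3 CPM in Cdk7_KO, a log2 fold change of 0.12 (SE 0.06), and Kif3a and Kif3b had 0.04 and 0.09. With library totals the median of these genes was 0.05 and 1 of 4 was negative.

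**Figure D5:**
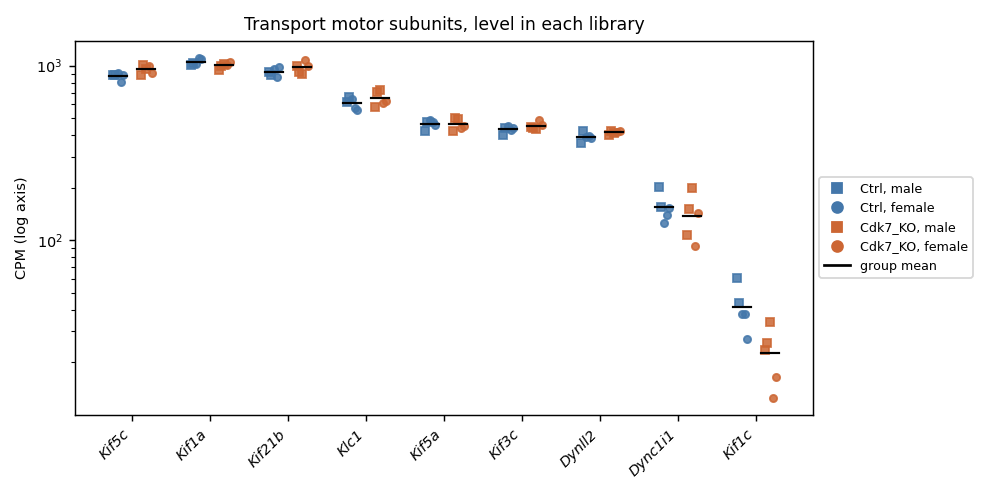
Level of 9 motor genes in each library, in CPM on a log axis. They are transport motor and light chain genes and Kif21b, which belongs to the other kinesins. Squares are male and circles female libraries, and black lines are group means. Kif1c is the gene with clearly separate means (41.4 and 22.4 CPM), while Kif5a and Kif1a overlap between groups.

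None of the 5 tested Dync1 genes and 6 tested Dctn genes had an edgeR unadjusted p under 0.05 for genotype or an adjusted DESeq2 call. Dync1h1, the motor heavy chain (chromosome 12, 110601452 to 110666945), was at 1497, 1517, 1452, 1472 and 1628 CPM in Ctrl and 1435, 1540.3, 1469, 1618 and 1543 CPM in Cdk7_KO. The values interleave, and the log2 fold change was 0.06 (SE 0.06, edgeR adjusted p = 0.696). The intermediate chain gene Dync1i1 varied most among libraries, between 126 and 203 CPM in Ctrl and between 92.4 and 199 CPM in Cdk7_KO, with a log2 fold change of -0.12 (SE 0.18). The other intermediate chain gene, Dync1i2, had 281 ± 14.0 and 281 ± 28.2 CPM. The share of Dync1i1 in the pair was 55.8 ± 4.55% in Ctrl and 52.5 ± 6.27% in Cdk7_KO (exact permutation p = 0.357, adjusted p = 0.397).

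All 6 dynactin genes were positive with a median of 0.08, and with library totals 3 of 6 were negative. Dctn3 was highest at 0.15 (SE 0.08, edgeR adjusted p = 0.403), followed by the other subunits down to Dctn4 at 0.04. In males alone Dctn3 was at -0.05 and in females alone at 0.33. Dctn1, which binds dynein and microtubules, had 369 ± 28.6 and 366 ± 22.7 CPM. Of the light chains, Dynll2 had the one unadjusted p under 0.05. It was at 362, 425, 393, 395.6 and 383 CPM in Ctrl and at 401.04, 423, 413, 418 and 421 CPM in Cdk7_KO, so the highest library was Ctrl 3 and the groups overlapped (log2 fold change 0.14, SE 0.05, edgeR adjusted p = 0.249). Dynll1 had 203 ± 19.3 and 203 ± 14.0 CPM, with -0.15 in males and 0.24 in females. The dynein 2 genes of cilia, Dync2h1 and Dync2li1, had values of -0.02 (SE 0.11) and 0.02 (SE 0.13).

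Of 14 tested genes in the group of other kinesins, which holds Kif1bp as well, 5 were negative and 9 positive. At an unadjusted p under 0.05, 2 were lower, against 10.5% of all genes, and both are linked to cilia. Kif9, which encodes a motor of motile cilia, was at 2.77, 1.57, 1.29, 1.91 and 2.48 CPM in Ctrl and at 1.42, 0.703, 1.01, 0.715 and 0.905 CPM in Cdk7_KO. Only Cdk7_KO 1 reached the lower end of Ctrl (log2 fold change -1.02, SE 0.32, edgeR adjusted p = 0.187). Kif24, a regulator of cilium assembly, had 2.23 ± 0.731 and 1.21 ± 0.516 CPM (log2 fold change -0.83, SE 0.37, edgeR adjusted p = 0.317). The cilia kinesin gene Kif19a and the light chain gene Dynlrb2, both near 1 CPM, had log2 fold changes of -0.71 (SE 0.49) and -1.14 (SE 0.77). Kif27, a cilium-related kinesin gene, lay the other way at 0.44 (SE 0.28). Kif7 and Kif6, also linked to cilia, had log2 fold changes of 0.05 (SE 0.19) and -0.22 (SE 0.32). Kif7 was the more abundant, with 9.10 ± 2.16 CPM in Ctrl and 9.05 ± 1.91 CPM in Cdk7_KO. Markers of multiciliated ependymal cells summed to 41.9 to 79.7 CPM in Ctrl and 26.2 to 46.9 CPM in Cdk7_KO over 11 genes, and 8 of 8 tested were negative (median -1.002). Mcidas, Tmem212 and Spag6 were too weak for the test, and Spag6 was at 0 counts in every Cdk7_KO library. The part of such cells in the Kif9 difference was not tested. The abundant Kif21b (923 ± 49.2 and 977 ± 72.9 CPM) and the depolymerase gene Kif2a (122 ± 10.4 and 125 ± 6.75 CPM) had log2 fold changes of 0.14 and 0.09.

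Partners of the transport motors were measured as 2 further lists. Of 32 motor adaptor and regulator genes tested, 11 were negative and 21 positive with a median of 0.03, 2 were lower and 2 higher at an unadjusted p under 0.05, and 0 passed edgeR's adjusted test. Over all genes the shares at that p were 10.5% lower and 4.9% higher. The 2 lower ones were Nde1, a dynein regulator that also acts in dividing progenitors (12.2 ± 2.20 and 5.66 ± 2.01 CPM, log2 fold change -1.06, DESeq2 adjusted p = 0.0055), and the mitotic kinesin gene Cenpe (-0.85, DESeq2 adjusted p = 0.0493). The 2 higher ones were Actr10, a dynactin gene, and Arl8a, which recruits kinesins to lysosomes, both at 0.14. Pafah1b1, the dynein regulator known as Lis1, had 0.06 (SE 0.05). Of 21 intraflagellar transport genes, 8 were negative and 13 positive with a median of 0.04, and only Ift43 had an unadjusted p under 0.05 (-0.44, SE 0.17, edgeR adjusted p = 0.243).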

How the data were processed

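RNA was measured in 10 libraries, 5 per genotype. The authors deposited raw counts per gene, which are whole numbers. STAR and Salmon were used with GRCm38 per the submitters' processing notes, but tool versions and the use of strand were not given in the sources used here. Every column matched a sample by name.

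The main test was edgeR 4.0.16 under R 4.3.3 (filterByExpr by group with a minimum count of 10, TMM factors, quasi-likelihood test, genotype alone), with Benjamini-Hochberg adjustment over 15578 genes at 0.05. DESeq2 1.42.0, limma 3.58.1 (voom), RLE factors, library totals, other filters, sex, the replicate number as a block and leaving out each library were alternatives. The test was tried on simulated counts. CPM were scaled to library totals and not by TMM, so the ratio of CPM means can differ slightly from the fitted fold change. Lengths are union exon lengths of GENCODE M21. Paralog shares, per exon length, were compared by exact permutation over 252 assignments. DESeq2 left some adjusted p-values missing, and these were not counted.

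Where nothing else is said, "called" means an adjusted p under 0.05. Of the members, 21 share exon bases with an antisense gene and 4 with a gene on their strand. Kifc1 with Kifc5b, and the Dynlt1 copies, may share reads.

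Members, role groups and lists were chosen with earlier results of these data known. Named genes were Kif5a, Kif1a, Kif11 and Kif20a, then in each role group the tested members at an unadjusted p under 0.05, up to 3 with the highest level per length and those with the most positive and most negative fold change at a mean of at least 1 CPM, and the 4 with the smallest p of each partner list. Other members named to complete a family, or for non-overlap, were picked after their values were seen.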

Additional observations from a re-analysis of the deposited data

Results flagged for a closer look

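Of 108 groups of 5 libraries checked, 7 held a library whose gap to its nearest neighbour exceeded Dixon's 95% critical value. Chance flags about 1 in 20 groups. The check did not cover every tested motor gene. Ctrl 6 was the low library for 2 mitotic kinesins, Kif2c at 2.33 CPM (next 4.77) and Kif22 at 5.26 CPM (next 8.85). Ctrl 4 was the high one for another 2, Kif15 at 5.73 CPM (next 4.44) and Kif18b at 5.04 CPM (next 4.03). In Cdk7_KO, the microtubule depolymerase gene Kif2a reached 136 CPM in replicate 3 (next 124), Kif1bp 99.2 CPM in replicate 5 (next 85.3) and the dynein 2 heavy chain gene Dync2h1 44.6 CPM in replicate 2 (next 36.1).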

How the results depend on the processing

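All 13 tested mitotic kinesins were negative under every setting except in males alone, where Kif18a was at 0.21. When 1 library was left out, their median lay between -0.91 (without Cdk7_KO replicate 1) and -0.55 (without Cdk7_KO replicate 4). It was -0.52 without Ctrl replicate 1 and Cdk7_KO replicate 4, -0.46 in males alone and -1.18 in females alone. Over all genes, edgeR called 0 in the main fit, 1 with no filter, 732 with sex as a factor and from 0 to 5 when 1 library was left out (5 without Cdk7_KO replicate 1). DESeq2 called 578. Of the motor genes DESeq2 called 4 and the fit with sex 5. In males alone 5 members were lower at an unadjusted p under 0.05, 4 of them mitotic kinesins. The count higher at that p, 2 in the main fit, was 1 with library totals, with a mean of at least 1 CPM, in males alone and without Ctrl replicate 1 and Cdk7_KO replicate 4 (a setting added after the data were seen), 4 with sex and 6 in females alone. Leaving out 1 library gave from 1 (Cdk7_KO replicate 4 or 5) to 5 (Ctrl replicate 3 or 6). Shares of all genes at that p are given for the main fit alone, so the counts of the other fits have no background beside them. Cdk7 was at -1.54 in DESeq2 (adjusted p = 2.25e-08), and between -1.68 and -1.44 when 1 library was left out, called by edgeR only without Cdk7_KO replicate 1 (adjusted p = 0.0391). The share of Kif5c was higher in Cdk7_KO by 0.90 percentage points in males, and that of Dynll1 differed by -3.13 in males and 0.57 in females.

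The replicate number was not taken as a pairing, since libraries of the same number correlated at -0.104, 0.314, 0.143 and 0.173 after removal of group means. With the number as a replicate block, edgeR called 5 genes and 0 motor genes, 12 members had an unadjusted p under 0.05 (9 of the 14 of the main fit), and the median of the mitotic kinesins was -0.89.

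Of all tested members, 16 turned sign with library totals, 8 with the replicate block, 16 in males alone and 12 in females alone. The values below are of the genes chosen by the naming rule. With the replicate block these were Kif1a (0.014), Klc2 (-0.066), Kif17 (-0.018), Kif16b (-0.12) and Dctn2 (-0.025). With library totals they were Kif5a (-0.0087), Klc2 (-0.041), Kif3a (-0.0077), Kif1b (-0.047), Kif16b (-0.033), Dync1i2 (-0.0018), Dync2li1 (-0.027), Dynll1 (-0.0023), Dctn1 (-0.013), Dctn2 (-0.0063) and Dctn4 (-0.017). In males alone they were Kif18a (0.21), Kif5b (0.018), Klc4 (0.023), Kif3b (-0.011), Kif1b (-0.0016), Kif13b (0.026), Dync1h1 (-0.011), Dync2h1 (0.19), Dynll1 (-0.15), Dctn3 (-0.052), Dctn1 (-0.023) and Dctn2 (-0.029). In females alone they were Kif1a (0.039), Klc2 (-0.076), Kif16b (-0.12), Dync1i2 (-0.0086) and Dync2li1 (-0.086). A mean of at least 1 CPM turned Klc2 (-0.0096), Kif1b (-0.015) and Kif16b (-0.00031). With sex as a factor Kif1a (0.0010), Klc2 (-0.020) and Dync2h1 (0.0020) turned, and without Ctrl replicate 1 and Cdk7_KO replicate 4 Dync1i1 (0.10) and Dctn4 (-0.019). When 1 library, or that pair, was left out, the ranges were -0.046 to 0.0085 for Kif1a, -0.037 to 0.062 for Klc2, -0.17 to 0.0055 for Klc4, -0.017 to 0.024 for Kif1b, -0.067 to 0.013 for Kif13a, -0.080 to 0.083 for Kif16b, -0.037 to 0.064 for Dync2li1, -0.10 to 0.047 for Dync2h1, -0.28 to 0.10 for Dync1i1, -0.0054 to 0.095 for Dynll1 and -0.019 to 0.075 for Dctn4. The cause of these turns was not tested. Counting error limits the members with few counts, such as Dynlrb2 with 0 counts and Kif14 with 4 counts in their lowest libraries.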
